A study of Mus musculus with 12 samples.

Results

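The results below concern genes whose difference between libraries labelled Ets1 KO and WT depended on the type of CD4 T cell. RNA was measured in 4 groups of 3 libraries from the spleens of C57BL/6 mice, a widely used inbred strain. T follicular helper (TFH) cells had been sorted as CD4+CXCR5+PD-1+, and the comparison population, called non-TFH, as CD4+CXCR5-PD-1-. All 12 libraries came from animals homozygous for a floxed Ets1 allele (Ets1 fl/fl). The 6 libraries labelled WT had no Cre transgene, and the 6 labelled KO came from CD4-cre Ets1 fl/fl mice, in which Cre driven from the Cd4 gene's regulatory elements removes the floxed segment in the T lineage. The floxed allele is therefore carried by the controls too, and a Cre transgene only by the KO groups, so that an effect of Cre itself cannot be told apart from that of Ets1. The age of the mice and the number of mice per library are not given in the labels. P-values measure the spread between these libraries, which may be technical.

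Each value is an FPKM (fragments, corrected for transcript length and library size), scaled between libraries and tested as log2(FPKM + 1). The KO change is the KO mean minus the WT mean in 1 cell type. The interaction is the KO change in TFH cells minus the KO change in non-TFH cells, so it is positive where the change was the higher in TFH cells. A feature is a gene, or a set of overlapping genes summed. Tests covered the 11097 of 23243 features that reached 1 FPKM in 3 libraries or more. Of these, 1932 passed at an adjusted p under 0.05 and form the set described here. Changes are log2 values with their standard error (SE).

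TFH cells move into B cell follicles, where CXCR5 guides them and where they provide CD40 ligand, IL-21 and IL-4 to germinal centre B cells. The repressor Bcl6 directs this state and opposes the programs of other helper T cells. Non-TFH CD4 cells of the spleen are mostly naive cells, with memory, effector and regulatory T cells among them. Ets1 is a transcription factor that binds DNA at a GGAA core, is abundant in resting lymphocytes and is known to take part in T cell development, cytokine expression and the regulatory T cell program.

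The Ets1 gene itself stood at 170.0, 203 and 214 FPKM in the WT and 223, 269.8 and 265 in KO TFH libraries, and at 410.0, 410.3 and 401 in WT and 413, 408 and 379 in KO non-TFH libraries. It was thus not lower in the libraries labelled KO, rose by 0.37 ± 0.10 in TFH cells (adjusted p = 0.015), and had an interaction of 0.39 ± 0.14 that did not pass (adjusted p = 0.076). The value sums all exons of the gene, those outside a floxed segment included, and is thus no check of the deletion. Genotypes are used as labelled. Pdcd1, which encodes PD-1, was at 316 to 704 FPKM in TFH and at 1.39 to 1.64 in non-TFH libraries, and Cxcr5 at 125 to 252 and at 0 to 12.2. Estimated depths were 11700000 to 15400000 fragments. WT non-TFH replicate 1 lacked a value for 830 features that every other library had, and its table held 264 entries of chromosome X and 0 of chromosome Y, against 1033 and 100 in the other WT non-TFH libraries.

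Several libraries stood apart by sex-linked or other cell type genes. The Y-linked Ddx3y was at 0 in all KO TFH libraries, at 33.4, 2.21 and 5.25 FPKM in the WT TFH libraries and at 40.3 to 68.0 in the 5 non-TFH libraries with a value. Xist, the RNA of the inactive X chromosome, was at 14.8 to 23.3 FPKM in KO TFH, at 0, 15.9 and 13.6 in WT TFH and at 19.6, 0.324 and 0.0826 in KO non-TFH libraries. In the WT non-TFH libraries with a value, Xist was at 1.805 and 0.163 FPKM. RNA of both sexes was thus present in some libraries, and sex differed between the WT and KO TFH groups. Ddx3y was absent from KO TFH libraries but present in non-TFH libraries of both genotypes. Sex is therefore partly confounded with the interaction itself. Its part in the results cannot be told apart from that of genotype and was not tested. Without WT TFH replicate 1 the interaction had 2105 calls, and without KO non-TFH replicate 1, which held both Xist and Ddx3y, 1570.

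Marker levels of other cells also moved between the groups. Summed over 24 macrophage and monocyte markers, the level was 2329 to 3617 FPKM in WT TFH, 1004 to 1386 in KO TFH, 210 to 272 in WT non-TFH and 301 to 359 in KO non-TFH libraries, and no marker was at 0 in every library of a group. The sum was thus lower in KO than in WT TFH libraries and higher in KO than in WT non-TFH libraries, without overlap. Summed over 19 B cell and class II genes it was 1599 to 2367, 906 to 1055, 63.7 to 82.3 and 131 to 152 FPKM in the same order, and Pax5 alone was at 0 in a whole group, KO non-TFH. CD8 and NK cell markers (10 genes) were at 33.9 to 197, 178 to 266, 57.3 to 63.9 and 199 to 237 FPKM. Plasma cell markers (8 genes) were at 68.8 to 113 FPKM in WT TFH, 102 to 132 in KO TFH, 21.1 to 21.7 in WT non-TFH and 50.8 to 70.6 in KO non-TFH libraries, with Tnfrsf17 at 0 in both WT groups. Dendritic cell markers (12 genes) were at 95.1 to 118, 78.7 to 98.5, 88.7 to 99.5 and 194 to 251 FPKM in the same order, with Ccr9 at 0 in WT non-TFH. In bulk RNA, fewer cells of a type and less RNA per cell cannot be told apart.

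**Figure D1:**
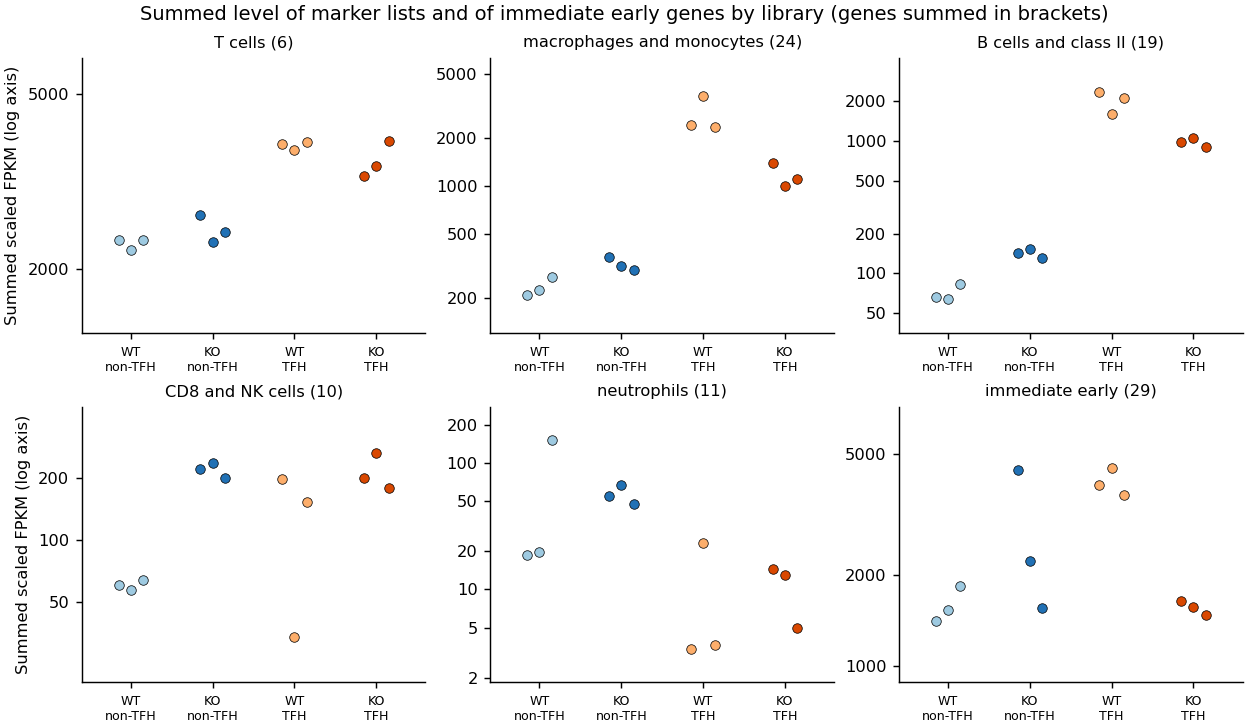
Summed scaled FPKM (log axis) of 5 marker lists and of the immediate early genes in each of the 12 libraries, 1 point per library, with the number of genes summed in brackets. The macrophage sum is highest in WT TFH libraries (2329 to 3617 FPKM) and lower in KO TFH (1004 to 1386), and the immediate early sum of KO non-TFH replicate 1 (4428 FPKM) stands above both other KO non-TFH libraries (2218 and 1551).

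The KO change depended on the cell type for 1932 of the 11097 tested features (17.4%) by limma with Benjamini-Hochberg adjustment. The change was higher in TFH cells for 763 of them (6.88% of those tested) and lower for 1169 (10.5%). The difference reached 1 log2 for 1228 and 2 log2 for 376. Within TFH cells, 1756 features rose (15.8%) and 1677 fell (15.1%) in KO against WT. Within non-TFH cells, 1310 rose (11.8%) and 951 fell (8.57%). Medians over all tested features were 0.04 in TFH cells, 0.03 in non-TFH cells and 0.01 for the interaction, which moved to -0.05 without scaling and to 0.05 with quantile normalization.

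Most interaction calls rested on a change called in a single cell type. For 926 of the 1932 only the TFH change was called (385 rose and 541 fell), and for 514 only the non-TFH change (327 rose and 187 fell). In 199 both changes passed in 1 direction and differed in size, and in 75 neither passed. The remaining 218 changed in opposite directions. Of these, 68 rose in TFH and fell in non-TFH cells (0.613% of tested features), and 150 fell in TFH and rose in non-TFH cells (1.35%). In all, 1192 features were called in both cell types, of which 974 moved in 1 direction, so that the opposite ones were the smaller share.

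**Figure D2:**
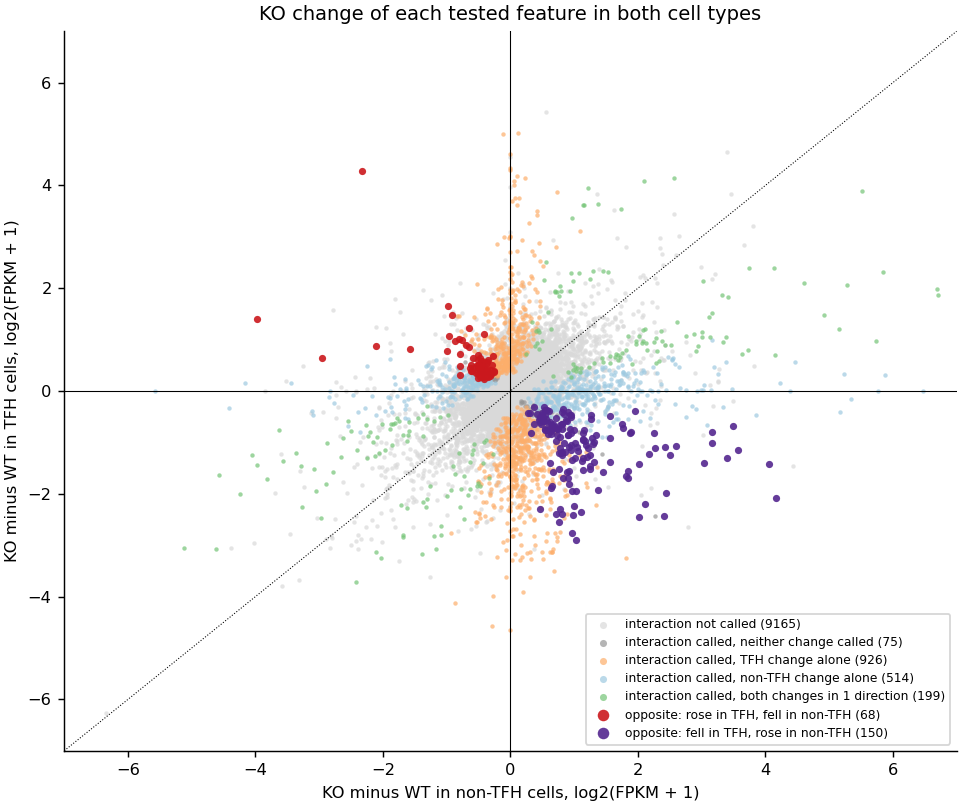
KO minus WT change on the log2(FPKM + 1) scale in non-TFH cells (x axis) and TFH cells (y axis), 1 point per tested feature and coloured by the calls; the dotted line marks equal changes, and 2 features without an interaction call lie outside the axes. The 68 features that rose in TFH and fell in non-TFH cells occupy the upper left, and the 150 with the reverse pattern the lower right.

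The 68 features that rose in TFH and fell in non-TFH cells included signalling and metabolic genes and many ribosomal protein genes. Their median change was 0.48 in TFH and -0.48 in non-TFH cells, and both changes reached 1 log2 in 2 of them. WT and KO libraries did not overlap in either cell type for 64, a separation that the calls in both cell types already select for. In WT mice 14 of the 68 had the higher mean in TFH cells, and in KO mice 28. The direction of this shift is fixed by how the 68 were selected. The opposite call held in every alternative that tested the feature for 13.

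Fyn, a Src family kinase that acts next to the T cell receptor (chr10:39369774-39565374, mm10), stood at 60.6, 66.5 and 50.6 FPKM in the WT and 109, 109 and 106 in KO TFH libraries. In non-TFH libraries it stood at 135, 155 and 145 in WT and 28.7, 33.9 and 36.5 in KO. The order of the cell types was thus turned around, with WT highest in non-TFH and KO highest in TFH cells, and no WT and KO libraries overlapped. Fyn rose by 0.87 ± 0.12 in TFH cells (adjusted p = 0.00019) and fell by 2.10 ± 0.12 in non-TFH cells (adjusted p = 2e-07), an interaction of 2.97 ± 0.16 (adjusted p = 5.6e-07). It was called in opposite directions in all 24 alternatives, though the one with replicate blocks within genotype refitted only the interaction.

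Further signalling genes had opposite calls in the direction of Fyn. Gng2, a gamma subunit of G proteins (chr14:19872559-19977249), stood at 28.2, 20.2 and 25.9 FPKM in the WT TFH libraries, and at 52.9 and 45.9 in those of KO with a value (n = 2). It was at 10, 8.05 and 8.77 FPKM in the WT and at 3.90, 4.94 and 4.41 in KO non-TFH libraries. The libraries did not overlap, and the interaction was 1.85 ± 0.23 (adjusted p = 0.00036). Nck2, an adaptor that links tyrosine kinases to actin, was at 4.91, 6.06 and 3.94 in WT and 11, 9.17 and 8.99 in KO TFH libraries. In non-TFH cells it was at 16.4, 19.9 and 15.5 in WT and at 11.5, 12.5 and 8.07 in KO. Its interaction was 1.51 ± 0.26 (adjusted p = 0.0022), and its opposite call was lost in 5 of 24 alternatives, among them the analyses without WT non-TFH replicate 1 or 2 or KO non-TFH replicate 1 or 3. Arhgap10 went from 2.52, 3.17 and 2.83 in WT to 5.29, 4.74 and 6.72 FPKM in KO TFH libraries. It went from 5.4, 5.82 and 7.61 to 2.41, 2.47 and 3 in non-TFH libraries. Both shifts were free of overlap, with an interaction of 1.77 ± 0.25 (adjusted p = 0.00052). Tnfsf8, the CD30 ligand, rose by 0.64 ± 0.15 and fell by 0.48 ± 0.15 in the same order, an opposite call lost in 12 of 24 alternatives.

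Both opposite members of the glycolysis list belonged to this direction. Aldoa, the aldolase of glycolysis, stood at 420.5, 421 and 391 FPKM in the WT and 844, 669.9 and 799.8 in KO TFH libraries, and at 165, 174 and 161 in WT and 99.2, 104 and 104 in KO non-TFH libraries. KO libraries were all above WT in TFH cells and all below WT in non-TFH cells. The interaction was 1.6 ± 0.12 (adjusted p = 8.2e-06). Ldha, which turns pyruvate into lactate, rose from 689, 627 and 652 to 1032, 877 and 1007 FPKM in TFH cells. It fell from 243, 262 and 244 to 198, 195 and 189 FPKM in non-TFH cells, a drop of 0.36 log2, with an interaction of 0.92 ± 0.11 (adjusted p = 0.00015). Neither opposite call was lost in any of the 24 alternatives.

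Of the other named genes of this direction, Bzw2, a regulator of translation initiation, was at 92.3, 91.9 and 85.0 FPKM in the WT and 200, 147 and 208 in KO TFH libraries. The non-TFH levels were 86.0, 84.8 and 81.9 in WT and 45.6, 51.2 and 46.2 in KO. WT levels of the 2 cell types lay close together and KO levels lay far apart, an interaction of 1.83 ± 0.17 (adjusted p = 3.2e-05). Cpm, the membrane peptidase carboxypeptidase M, was at 15.1, 14.5 and 9.32 in WT and 30.5, 27.7 and 34.6 in KO TFH libraries. It was at 10.8, 11.3 and 9.43 in WT and 6.59, 5.50 and 6.95 in KO non-TFH libraries. Hpgds, the prostaglandin D synthase of blood cells, was at 9.6, 6.48 and 9.87 in WT and 28.5, 13.5 and 17.4 in KO TFH libraries, and between 0.288 and 2.77 FPKM in non-TFH libraries. Hpgds and Cpm had interactions of 2.03 ± 0.41 (adjusted p = 0.0049) and 1.87 ± 0.25 (adjusted p = 0.00038), and the opposite call was lost in 9 alternatives for Hpgds and in 3 for Cpm. Kifc1, a kinesin of the mitotic spindle, overlapped between WT (1.14 to 1.96 FPKM) and KO (1.68 to 5.17) TFH libraries. It fell from 13.6 to 15.1 FPKM in WT to 3.57 to 5.26 in KO non-TFH libraries, and its opposite call was lost in 11 of 24 alternatives. Mfsd6, a membrane transporter-like protein, had an interaction of 1.75 ± 0.27 (adjusted p = 0.00095), and its opposite call was lost without KO non-TFH replicate 1. Fam92a, a membrane-bending protein, was at 18.6 to 20.2 FPKM in WT TFH, 25.7 to 38.8 in KO TFH and 6.08 to 7.11 in WT non-TFH libraries, and was listed at 0 in all KO non-TFH libraries, which can be a failed estimate, so no fold is given.

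**Figure D3:**
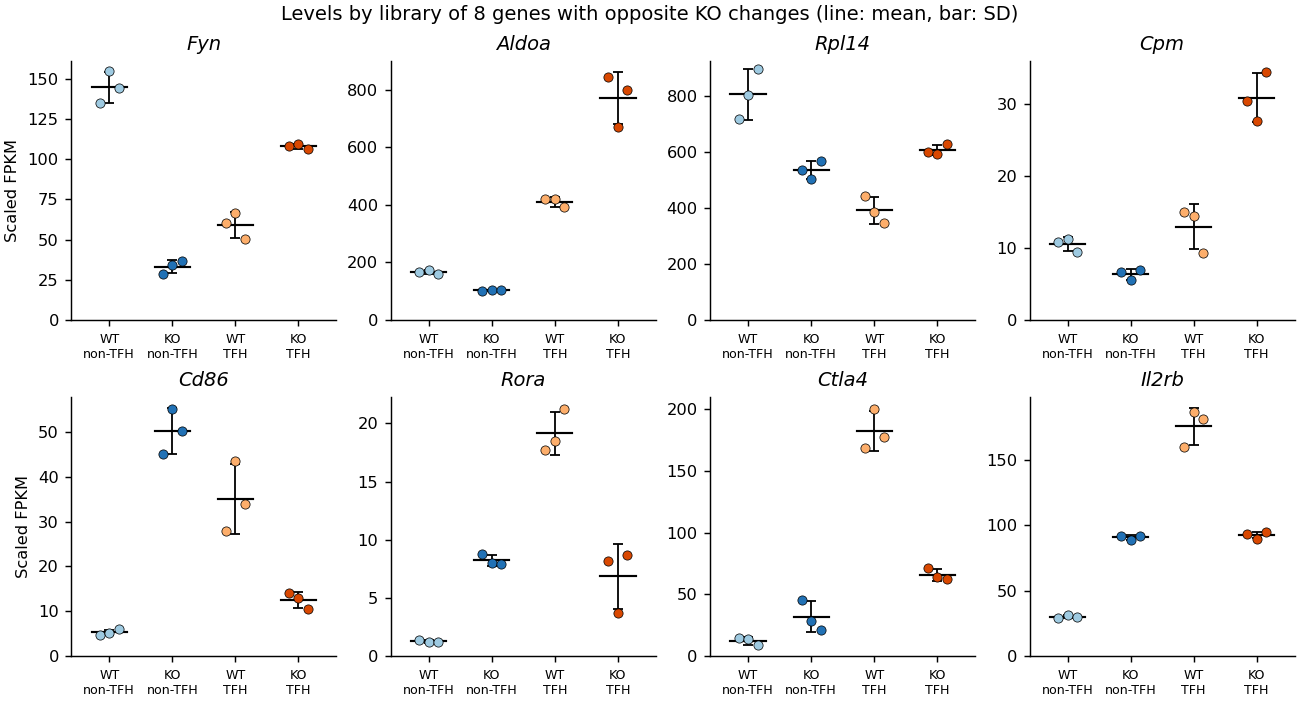
Scaled FPKM of 8 genes with opposite KO changes in each library (points), with the group mean (line) and standard deviation (bar), n = 3 per group; each panel's axis starts at 0. Fyn, Aldoa, Rpl14 and Cpm rise in KO TFH and fall in KO non-TFH cells, and Cd86, Rora, Ctla4 and Il2rb do the reverse, as for Il2rb at 159.8 to 187 FPKM in the WT and 89.7 to 94.7 in KO TFH libraries.

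Ribosomal protein genes made up 33 of the 68 features that rose in TFH and fell in non-TFH cells. This list was drawn up after their values had been seen. Of 79 genes, 75 were tested and 57 had an interaction call (76.0%, against 17.4% of all features), each with the change higher in TFH cells. In TFH cells 43 rose and none fell, and in non-TFH cells 49 fell and none rose. The medians were 0.35 in TFH and -0.42 in non-TFH cells, and 0.80 for the interaction. The pattern depended on the scaling between libraries. With quantile normalization 9 were called, 1 of them in opposite directions, and the median interaction was 0.19, whereas without scaling 54 were called and 27 were opposite. These genes have many near-identical retroposed copies, so their levels are uncertain.

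Rpl14, a protein of the large ribosomal subunit, was at 443, 385 and 348 FPKM in the WT and 599.5, 594 and 629 in KO TFH libraries. In non-TFH libraries it was at 716, 805 and 898 in WT and 537, 505 and 569 in KO. The libraries did not overlap in either cell type, and the interaction of 1.22 ± 0.14 (adjusted p = 0.00016) was called in all 24 alternatives. Rps25 of the small subunit was at 698, 649 and 656 FPKM in the WT and 916, 914 and 987 in KO TFH libraries, and at 1571, 1410 and 2186 in WT and 1176, 1142 and 1170 in KO non-TFH libraries. Rpl35 was at 1058, 975 and 969.6 in WT and 1223, 1281 and 1497 in KO TFH libraries, and at 2026, 2169 and 2115 in WT and 1755, 1485 and 1617 in KO non-TFH libraries. Both showed the 2 shifts without overlap, with interactions of 1.03 ± 0.18 (adjusted p = 0.002) and 0.79 ± 0.12 (adjusted p = 0.00095). Quantile normalization took away both calls.

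Promoter windows were searched for 2 forms of the ETS family's DNA motif, CCGGAAGT and CAGGAAGT, on both strands (the 2 do not overlap each other). The windows were the 250 bases before the annotated start in RefSeq's table (GRCm38.p6). CCGGAAGT was present in 6.5% of 8035 windows of tested features, in 3 of 43 windows of genes that rose in TFH and fell in non-TFH cells (7.0%), and in 0 of 107 of the reverse direction. CAGGAAGT was present in 2.9% of the 8035, in 0 of the 43 and in 6 of the 107 (5.6%). A match is a run of letters and not a shown binding site. The windows below were chosen after the search, as 2 holders of each form among the genes with values given here, with the motif in capitals. They show where the letters sit in genes of opposite behaviour: 73 bases before the start in Rps25 (chr9:44407464-44407713, plus strand), 128 in Rpl35 (chr2:39005132-39005381, minus strand), 48 in Ccr4 (chr9:114496545-114496794, minus strand) and 215 in Frmd4b (chr6:97617658-97617907, minus strand).
Rps25: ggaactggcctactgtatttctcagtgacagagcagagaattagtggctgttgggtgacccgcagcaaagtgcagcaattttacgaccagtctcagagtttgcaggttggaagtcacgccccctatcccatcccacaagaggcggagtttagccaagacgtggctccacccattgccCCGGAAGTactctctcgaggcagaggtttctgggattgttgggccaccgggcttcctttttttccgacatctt
Rpl35: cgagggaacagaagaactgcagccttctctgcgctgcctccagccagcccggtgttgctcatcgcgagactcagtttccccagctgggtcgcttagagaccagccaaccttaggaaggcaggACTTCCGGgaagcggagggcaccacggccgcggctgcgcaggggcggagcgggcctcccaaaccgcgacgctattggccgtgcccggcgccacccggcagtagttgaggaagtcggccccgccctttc
Ccr4: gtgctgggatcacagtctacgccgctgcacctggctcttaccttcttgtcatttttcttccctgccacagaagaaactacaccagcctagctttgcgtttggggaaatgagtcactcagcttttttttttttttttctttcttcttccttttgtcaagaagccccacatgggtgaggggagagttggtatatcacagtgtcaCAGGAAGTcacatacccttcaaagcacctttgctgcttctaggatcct
Frmd4b: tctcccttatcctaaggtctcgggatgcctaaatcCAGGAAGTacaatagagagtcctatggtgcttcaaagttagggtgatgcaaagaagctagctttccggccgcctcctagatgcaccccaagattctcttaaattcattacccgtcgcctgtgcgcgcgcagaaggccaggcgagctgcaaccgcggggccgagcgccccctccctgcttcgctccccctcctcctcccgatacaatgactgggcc
Rpl35 holds its motif in reverse complement, and the other 3 on the strand of the gene. The deposited loci of Rps25 (from chr9:44407615) and Ccr4 (up to chr9:114497313) reach into their windows. Their motif positions thus hold for RefSeq's starts only. Kifc1 holds CCGGAAGT at 170 bases, and C1qb, Ccl6, Fcna and BC035044 hold CAGGAAGT at 53, 48, 16 and 91 bases. The windows of Hpgds, Gng2, Klf4 and Cd163, 2 leading genes of each direction, hold neither form.

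The 150 features that fell in TFH and rose in non-TFH cells included receptors of cytokines and chemokines, inhibitory receptors, immediate early transcription factors and myeloid genes. Their medians were -0.92 in TFH and 0.92 in non-TFH cells, and both changes reached 1 log2 in 40. For 147 of them KO libraries were separate from WT libraries in both cell types. The calls in both cell types select for such separation, so it is no added support. In WT mice 121 of the 150 had the higher mean in TFH cells, and in KO mice 61, with the order of the cell types differing between genotypes for 60. The direction of this shift, too, is fixed by how the 150 were selected. The opposite call held in every alternative that tested the feature for 53. The summed macrophage and class II markers moved in the same 2 directions, and their part in these results was not tested.

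Cd86, the ligand of CD28 and CTLA-4 (chr16:36603869-36666077), was at 28, 43.5 and 33.9 FPKM in the WT and 14, 12.9 and 10.6 in KO TFH libraries. The non-TFH levels were 4.73, 5.13 and 5.92 in WT and 45.0, 55.2 and 50.3 in KO. KO non-TFH cells thus exceeded every TFH library, the reverse of the order in WT. The gene fell by 1.41 ± 0.17 in TFH and rose by 3.03 ± 0.17 in non-TFH cells, an interaction of -4.44 ± 0.23 (adjusted p = 4e-07). Rora, a nuclear receptor used by type 17 and other effector cells (chr9:68653786-69388246), was at 17.7, 18.5 and 21.2 FPKM in the WT and 8.19, 3.65 and 8.69 in KO TFH libraries. In non-TFH libraries it was at 1.41, 1.18 and 1.23 in WT and 8.74, 8.01 and 7.89 in KO. WT cell types lay far apart and KO cell types overlapped, with an interaction of -3.45 ± 0.34 (adjusted p = 4.7e-05). Both genes were opposite in all 24 alternatives.

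Of 23 tested costimulatory and inhibitory receptors, 4 had this pattern, while 15 had an interaction call, 5 of them with the higher change in TFH cells. Over all tested features 1.35% had this pattern and 17.4% an interaction call. Ctla4, which restrains costimulation, was at 169, 200.3 and 178 FPKM in the WT and 71.2, 64.2 and 62.0 in KO TFH libraries, and at 14.9, 13.4 and 8.77 in WT and 45.5, 28.2 and 21.2 in KO non-TFH libraries. Its KO libraries were all lower in TFH cells and all higher in non-TFH cells, an interaction of -2.70 ± 0.34 (adjusted p = 0.00028). Lag3, an inhibitory receptor for class II, was at 6.84, 5.16 and 4.67 in WT and 2.01, 1.21 and 1.45 in KO TFH libraries, and at 1.44, 0.909 and 1.1 in WT and 3.78, 3.25 and 3.91 in KO non-TFH libraries. Klrg1, a receptor of differentiated effector cells, was at 11.2, 17.7 and 11.2 in WT and 7.53, 6.02 and 4.66 in KO TFH libraries, and at 0.0559 to 0.245 in WT and 7.67, 14.8 and 7.58 in KO non-TFH libraries. Neither gene had overlapping libraries, with interactions of -2.47 ± 0.27 (adjusted p = 9.1e-05) for Lag3 and -4.18 ± 0.38 (adjusted p = 2.8e-05) for Klrg1, whose opposite call was lost with array weights and without KO TFH replicate 3. Tnfrsf18, which encodes GITR, went from 159 to 241 FPKM down to 94.7 to 114 in TFH cells and from 35.0 to 45.9 up to 69.1 to 84.2 in non-TFH cells, an interaction of -1.76 ± 0.23 (adjusted p = 0.0003).

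Among cytokine receptors, Il2rb, the chain shared by the IL-2 and IL-15 receptors (a list of 31 tested interleukin receptor, STAT and SOCS genes), was at 159.8, 187 and 181 FPKM in the WT and 93.5, 89.7 and 94.7 in KO TFH libraries. The non-TFH levels were 28.8, 31.2 and 29.9 in WT and 91.9, 88.4 and 92.0 in KO. A gap between the cell types in WT was thus replaced by nearly equal levels in KO, with an interaction of -2.48 ± 0.11 (adjusted p = 1.3e-07). Il10ra, the ligand-binding chain for IL-10, went from 29.8, 34.2 and 35.4 to 17.9, 10 and 11.5 in TFH libraries and from 10.4, 9.65 and 10.2 to 23.3, 22 and 24.9 in non-TFH libraries. Il12rb1, a chain for IL-12 and IL-23, went from 15.9, 8.92 and 11 to 4.10, 6.77 and 3.54 in TFH and from 2.51, 2.17 and 2 to 6.16, 5.22 and 5.86 in non-TFH libraries. Neither gene's WT and KO libraries overlapped, with interactions of -2.45 ± 0.24 (adjusted p = 5.4e-05) and -2.23 ± 0.33 (adjusted p = 0.00075). Il6st, the signalling chain gp130, fell by 0.41 ± 0.09 and rose by 0.90 ± 0.09, and Il21r fell by 0.34 ± 0.10 and rose by 0.82 ± 0.10. Ifngr1 fell by 0.73 ± 0.17 and rose by 0.65 ± 0.17, and Stat2, a transducer of type I interferon, fell by 0.60 ± 0.14 and rose by 0.46 ± 0.14. The last 3 lost an opposite call in 2 to 5 of 24 alternatives. Of the 31 genes, 13 had an interaction call (41.9%, against 17.4% of all tested features), all with the lower change in TFH cells. The median interaction was -0.70.

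Il21, the TFH cytokine that supports germinal centres, was at 77.7, 60.6 and 71.2 FPKM in the WT and 46.0, 53.4 and 44.5 in KO TFH libraries. It was at 0.201, 0.0904 and 0.269 in WT and 0.505, 0.974 and 0.553 in KO non-TFH libraries. KO libraries were lower in TFH cells and higher, at levels below 1 FPKM, in non-TFH cells. The interaction of -1.02 ± 0.22 (adjusted p = 0.0073) passed in all 24 alternatives, whereas the pair of opposite calls was lost in 15.

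Of 25 tested chemokine and homing receptors, 4 were opposite in this direction, against 1.35% of all tested features. Ccr8, a receptor of regulatory and type 2 cells, was at 24.9, 59.2 and 35.3 FPKM in the WT and 20.4, 17.1 and 12.6 in KO TFH libraries. In non-TFH libraries it was at 1.63, 0.415 and 0.972 in WT and 23.1, 20.1 and 23 in KO. The cell types were far apart in WT and overlapped in KO libraries. Its interaction was -4.71 ± 0.42 (adjusted p = 2.8e-05), and its opposite call was lost in the same 2 alternatives as that of Klrg1. Ccr4, another receptor of those cells, was at 6.70, 8.82 and 11.2 in WT and 5.34, 4.65 and 3.67 in KO TFH libraries, and at 1.5, 1.05 and 1.22 in WT and 6.70, 7.75 and 7.41 in KO non-TFH libraries. Ccr6, a receptor of type 17 and follicle-homing cells, was at 9.62, 12.8 and 12.5 in WT and 2.65, 4.33 and 4.79 in KO TFH libraries, and at 0.570, 0.605 and 0.835 in WT and 4.02, 2.28 and 3.33 in KO non-TFH libraries. Both were free of overlap, with interactions of -2.70 ± 0.27 (adjusted p = 5.5e-05) for Ccr4 and -2.69 ± 0.31 (adjusted p = 0.00015) for Ccr6. Itgb2, the beta chain of leukocyte integrins, fell by 0.76 ± 0.08 in TFH and rose by 0.54 ± 0.08 in non-TFH cells (interaction adjusted p = 3.2e-05).

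Chemokines and the proapoptotic gene Pmaip1 were low in WT non-TFH cells. Ccl3 was at 11.8, 11.1 and 7.19 FPKM in the WT and 4.49, 2.06 and 1.39 in KO TFH libraries, and at 0.335, 1.13 and 1.83 in WT and 9.93, 6.90 and 3 in KO non-TFH libraries. Ccl4 was at 37.1, 18.9 and 14.7 in WT and 8.69, 2.25 and 2.98 in KO TFH libraries, and at 0, 0 and 1.11 in WT and 6.87, 5.54 and 2.33 in KO non-TFH libraries. Both attract leukocytes, and neither showed overlap. Their interactions were -3.47 ± 0.59 (adjusted p = 0.0018) and -4.30 ± 0.71 (adjusted p = 0.0017). Ccl6, a chemokine of myeloid cells, had an interaction of -2.95 ± 0.54 (adjusted p = 0.0027). The opposite call was lost in 1 alternative for Ccl3, in 2 for Ccl4 and in 4 for Ccl6, among them the analyses without KO non-TFH replicate 1, WT TFH replicate 2 or KO TFH replicate 1. Pmaip1, which encodes NOXA, was at 35.1, 27.5 and 34.7 in WT and 11.7, 12 and 7.66 in KO TFH libraries, and at 0.688, 0.544 and 0.750 in WT and 6.94, 3.50 and 4.88 in KO non-TFH libraries. It was opposite in all 24 alternatives, with an interaction of -3.40 ± 0.32 (adjusted p = 3.3e-05).

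Of the remaining leading genes, Ifitm3, an antiviral membrane protein, was at 60.0, 83.7 and 74.7 FPKM in the WT and 20, 18.5 and 16.5 in KO TFH libraries, and at 5.49, 6.18 and 7.47 in WT and 20.6, 15.5 and 18 in KO non-TFH libraries. Frmd4b, a scaffold with a FERM domain, was at 15.1, 16.6 and 12.3 in WT and 3.34, 3.71 and 4.38 in KO TFH libraries, and at 0.875, 0.850 and 1.38 in WT and 6.52, 5.35 and 6.90 in KO non-TFH libraries. KO and WT libraries were separate in both cell types for both genes, with interactions of -3.29 ± 0.22 (adjusted p = 3.1e-06) and -3.54 ± 0.25 (adjusted p = 3.8e-06). Cd81, a tetraspanin, was at 106 to 223 FPKM in WT TFH, 48.7 to 62.0 in KO TFH and 14.4 to 17.6 in KO non-TFH libraries, and was listed at 0 in all WT non-TFH libraries, so no fold is given. D16Ertd472e had an interaction of -3.03 ± 0.42 (adjusted p = 0.00047). Dapl1, a gene of naive T cells, fell by 1.03 ± 0.22 in TFH cells and rose by 1.30 ± 0.22 in non-TFH cells, where it went from 176 to 199 FPKM up to 392 to 557. The chaperone Dnajb4 and the myosin Myo1f were opposite too, and lost that call in 11 and 6 alternatives.

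Immediate early genes, which respond within minutes to receptor signals and also to tissue handling, included members with lower levels in KO TFH and higher levels in KO non-TFH libraries. Of 29 tested, 20 had an interaction call (69.0%, against 17.4% of all tested features), all with the lower change in TFH cells. In TFH cells 14 fell and 2 rose, against 12 that rose and 1 that fell in non-TFH cells, with medians of -1.19 and 1.09. Nr4a1, an orphan nuclear receptor induced by T cell receptor signals, was at 52.1, 48.4 and 46.5 FPKM in the WT and 21.6, 22.5 and 16.8 in KO TFH libraries, and at 20.4, 18.6 and 19.4 in WT and 228, 79.4 and 84.3 in KO non-TFH libraries. Klf4, a zinc finger transcription factor, was at 7.86, 8.10 and 3.85 in WT and 0.635, 0.179 and 0.284 in KO TFH libraries, and at 0.568, 0.312 and 1.34 in WT and 38.8, 3.42 and 3.16 in KO non-TFH libraries. KO non-TFH replicate 1 was far above its group for both genes. Without it the list again had 20 calls, with a median interaction of -1.41, against -1.74 with it. The interaction was -3.75 ± 0.45 (adjusted p = 0.00024) for Nr4a1 and -4.85 ± 1.03 (adjusted p = 0.0087) for Klf4, whose opposite call was lost in 11 alternatives. Klf6 went from 118, 236 and 134 to 47.6, 34.5 and 38.3 FPKM in TFH libraries and from 22.7, 24.1 and 24.1 to 72.2, 35.5 and 46.4 in non-TFH libraries, an interaction of -2.97 ± 0.39 (adjusted p = 0.0004). Its opposite call was lost without KO non-TFH replicate 1 and without any 1 of the WT non-TFH libraries.

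Genes of macrophages and of class II presentation formed a further part of the 150. Csf1r, the receptor for the macrophage growth factor, was at 133, 187 and 136 FPKM in the WT and 19.9, 17 and 20.9 in KO TFH libraries. The non-TFH levels were 1.70, 1.99 and 3.77 in WT and 6.92, 5.93 and 4.91 in KO. Cd163, the haemoglobin scavenger receptor of macrophages, was at 6.49, 12.4 and 9.09 in WT and 1.61, 0.565 and 0.539 in KO TFH libraries, and at 0.676, 0.864 and 1.40 in WT and 6.11, 6.38 and 8.41 in KO non-TFH libraries. Neither overlapped in a cell type, and the KO non-TFH level reached that of WT TFH libraries for Cd163 but not for Csf1r. The interactions were -3.93 ± 0.31 (adjusted p = 9.1e-06) for Csf1r and -4.46 ± 0.38 (adjusted p = 1.9e-05) for Cd163. Of 24 tested macrophage and monocyte markers, 20 had the lower change in TFH cells and 1 the higher, and 6 were opposite. Over all tested features 10.5% had the lower change and 6.88% the higher, and 1.35% were opposite in this direction. The medians of the markers were -2.30 in TFH and 0.71 in non-TFH cells. Spi1, the ETS family factor PU.1 of myeloid and B cells, was at 15.6, 10.8 and 13.8 in WT and 5.54, 4.20 and 4.63 in KO TFH libraries, and at 0.402 to 0.755 in WT and 2.21, 2.81 and 1.80 in KO non-TFH libraries. Its interaction was -2.32 ± 0.27 (adjusted p = 0.00015). H2-Ab1, a class II chain, was at 489, 259 and 358 in WT and 181, 203 and 175 in KO TFH libraries, and at 2.69, 1.80 and 3.09 in WT and 6.91, 7.97 and 5.44 in KO non-TFH libraries, an interaction of -2.08 ± 0.31 (adjusted p = 0.00078). Fcer1g and the C1q genes were opposite as well, and C1qa, C1qb, C1qc and H2-Eb1 lost that call in 5 to 14 alternatives.

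Where the TFH change alone was called, the largest differences included enzymes that were near absent in non-TFH cells. Padi4, a peptidylarginine deiminase, was at 14.7, 6.87 and 9.93 FPKM in the WT and 164, 142 and 176 in KO TFH libraries. In non-TFH libraries it was at 0.185 to 0.290 in WT and 0.679 to 1.88 in KO, without overlap, though this rise was not called. Prodh, a proline dehydrogenase, was at 1.98, 1.48 and 2.04 in WT and 53.8, 30.5 and 63.2 in KO TFH libraries, and at 0.613 to 1.52 in non-TFH libraries. KO TFH libraries stood above all others for both genes. Akr1c18, a steroid dehydrogenase, was at 0, 0 and 1.27 in WT and 38.3, 55.3 and 33.7 in KO TFH libraries, and the kinase gene Sbk2 at 1.79 to 3.54 and 42.8 to 55.5. The interactions were 3.14 ± 0.36 for Padi4 (adjusted p = 0.00015), 4.04 ± 0.38 for Prodh (adjusted p = 3.6e-05), 4.90 ± 0.42 for Akr1c18 (adjusted p = 2.1e-05) and 3.61 ± 0.27 for Sbk2 (adjusted p = 7.3e-06). Ica1l rose from 1.83 to 3.40 FPKM to 20 to 38.0 in TFH cells. Stard5, a sterol-binding protein, was listed at 0 in all WT TFH libraries, at 29.1 to 33.7 FPKM in KO TFH and at 6.35 to 7.61 in all non-TFH libraries.

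Among the genes that met the naming rule, those with the largest negative interaction where the TFH change alone was called included Slc40a1. It is a member of the macrophage and monocyte list. Slc40a1, the iron exporter ferroportin, was at 185, 444 and 199 FPKM in the WT and 30.5, 17.9 and 18.3 in KO TFH libraries, and at 1.27 to 3.54 in non-TFH libraries. Trf, the iron carrier transferrin, was at 141, 268 and 166 in WT and 23.9, 15.3 and 21.8 in KO TFH libraries, and at 1.40 to 4.78 in non-TFH libraries. WT TFH replicate 2 was the highest for both, as it was for the summed macrophage markers. Their interactions were -4.19 ± 0.44 (adjusted p = 7.3e-05) and -3.75 ± 0.40 (adjusted p = 7.9e-05). Tbxas1, the thromboxane synthase, Siglece and Clec4a3, which are inhibitory receptors of myeloid cells, and Treml4 had interactions between -3.92 and -3.74. In non-TFH cells all KO libraries were above WT for Slc40a1, Siglece, Clec4a3 and Treml4, though these changes were not called. The non-TFH libraries overlapped for Trf and Tbxas1. The fall of the cytokine Ifng was also called in TFH cells alone, from 65.8, 44.6 and 40.3 to 9.63, 11.8 and 9.89 FPKM. Ifng was at 0.348 to 2.25 in non-TFH libraries, an interaction of -2.42 ± 0.42 (adjusted p = 0.0019). Foxp3, summed with the overlapping Ppp1r3fos, went from 40.9, 59.5 and 69.2 to 7.89, 10.6 and 7.18 in TFH libraries. It stayed at 11.7 to 14.5 in WT and 12.3 to 14 in KO non-TFH libraries, which overlapped, an interaction of -2.52 ± 0.27 (adjusted p = 9.1e-05).

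Where the non-TFH change alone was called, several genes of TFH or effector cells appeared in KO non-TFH libraries. Tigit, an inhibitory receptor, was at 78.8, 74.2 and 89.5 FPKM in the WT and 79.5, 98.0 and 94.8 in KO TFH libraries, and at 0.687, 0.435 and 0.376 in WT and 23.9, 27.1 and 30.8 in KO non-TFH libraries. Cldn10, a claudin, was at 2.73 to 6.67 in WT and 5.38 to 9.25 in KO TFH libraries, and at 2.11, 2.67 and 3.08 in WT and 76.3, 66.8 and 94.8 in KO non-TFH libraries. TFH libraries of the 2 genotypes overlapped for both genes, whereas non-TFH libraries were far apart. The interactions were -4.07 ± 0.19 (adjusted p = 1.5e-07) for Tigit and -3.90 ± 0.38 (adjusted p = 5e-05) for Cldn10. Ncf1, a subunit of the phagocyte oxidase, was at 1.92, 3.38 and 2.08 in WT and 33.4, 28.9 and 38.0 in KO non-TFH libraries, and the cadherin-related Cdhr3 at 0.0771 to 0.332 and 26.4 to 66.6. Foxo4 (37.2 to 43.3 FPKM in KO) and Emc4 (36.0 to 38.0) were listed at 0 in the WT non-TFH libraries with a value. Tnfrsf9, a costimulatory receptor of activated T cells, was at 59.8, 99.9 and 79.4 in WT and 91.9, 109.5 and 93.2 in KO TFH libraries, and at 4.12, 3.10 and 3.36 in WT and 42.0, 44.7 and 39.6 in KO non-TFH libraries. Its interaction was -2.93 ± 0.23 (adjusted p = 1.2e-05).

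In the other direction, a fall was called in non-TFH cells alone. Sh3pxd2a, a scaffold of podosomes, was at 9.25, 9.85 and 9.35 FPKM in the WT and 0.253, 0.242 and 0.170 in KO non-TFH libraries. In TFH libraries it was at 0.152, 0.255 and 1.22 in WT and 0.0757, 0.0812 and 0.0475 in KO, lower without overlap but not called. Fbxo17, an F-box protein, was at 7.48, 7.25 and 7.64 in WT and 0.185, 0.156 and 0.197 in KO non-TFH libraries, and at 0.153 to 2.59 in TFH libraries. Both were high in WT non-TFH libraries and low in the other 3 groups. Interactions were 2.64 ± 0.32 (adjusted p = 0.0002) and 2.72 ± 0.45 (adjusted p = 0.0015). Jmjd8, Slc48a1, Gss and Snn were at 7.08 to 27.2 FPKM in WT non-TFH and were listed at 0 in all KO non-TFH libraries while their TFH levels did not pass a test of change. A value listed at 0 can be a failed estimate, and 156 of the 1932 interaction calls had a group listed at 0 throughout.

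Of further genes that rose or fell in 1 cell type, Klf2, which drives naive T cells to recirculate, stood at 41.9, 45.3 and 36.5 FPKM in the WT and 10.5, 35.7 and 14 in KO TFH libraries, and at 94.5 to 115 in WT and 192 to 356 in KO non-TFH libraries. Il2ra, the receptor chain that raises affinity for IL-2, stood at 13.7, 11.1 and 21.7 in WT and 3.38, 2.73 and 2.60 in KO TFH libraries, and at 8.72 to 13.1 and 6.81 to 9.29 in non-TFH libraries. Only the fall in TFH cells was called for either gene, and the non-TFH difference of Klf2 (1.18 ± 0.38, without overlap) lay at an adjusted p = 0.05. The 2 genes had interactions of -2.37 ± 0.53 (adjusted p = 0.012) and -1.71 ± 0.33 (adjusted p = 0.0042). Bcl2l1, which encodes the survival factor BCL-XL, went from 5.25, 5.83 and 5.24 to 18.8, 22.2 and 21.6 FPKM in non-TFH libraries, with TFH libraries at 11.2 to 14 in WT and 9.04 to 12 in KO. Eomes, a T-box factor of cytotoxic and memory cells, went from 1.18, 0.873 and 1.15 to 13.8, 17.5 and 13.2 in non-TFH libraries, with TFH libraries at 1.30 to 3.42 and 1.5 to 4.27. These 2 rose in non-TFH cells alone, where WT and KO libraries did not overlap, with interactions of -2.03 ± 0.19 (adjusted p = 4.2e-05) and -2.93 ± 0.42 (adjusted p = 0.00066). Id1, an inhibitor of E proteins, rose in TFH cells alone, from 1.80, 1.76 and 0.717 to 14.2, 18.9 and 16.5 FPKM, an interaction of 2.43 ± 0.40 (adjusted p = 0.0014).

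Both changes passed in 1 direction but unequally for 199 features. Of those that rose in both cell types, 72 rose more in non-TFH and 35 more in TFH cells, and of those that fell, 53 and 39. Tns4, a tensin of focal adhesions, was at 0.0228, 0.0567 and 0.0630 FPKM in the WT and 2.69, 3.31 and 2.48 in KO TFH libraries, and at 0.333, 0.136 and 0.158 in WT and 131, 121 and 123 in KO non-TFH libraries. Ccr9, the gut-homing receptor, was at 3.74, 4.86 and 5.26 in WT and 12, 16 and 47.3 in KO TFH libraries, and went from 0 in all WT to 104, 96.7 and 107 in KO non-TFH libraries. Lgals3, a galectin, was at 26.4, 40.8 and 28.5 in WT and 93.4, 50.9 and 51.2 in KO TFH libraries, and at 1.6, 1.6 and 1.92 in WT and 168, 152 and 114 in KO non-TFH libraries. All 3 genes therefore rose in both cell types and rose further in non-TFH cells. The interaction was -4.84 ± 0.20 (adjusted p = 6.7e-08) for Tns4 and -4.76 ± 0.34 (adjusted p = 4.4e-06) for Lgals3. Gzmb, the granzyme of cytotoxic cells, overlapped between the TFH genotypes (1.99 to 7.86 and 7.21 to 16.9 FPKM) and rose from 0.271 to 0.527 to 42.6 to 54.3 in non-TFH cells. Itgae, an integrin chain of tissue-resident and regulatory T cells, was at 2.27, 4.58 and 5.37 in WT and 9.81, 15.4 and 13.1 in KO TFH libraries, and at 1.86, 1.08 and 0.816 in WT and 63.5, 77.6 and 57.5 in KO non-TFH libraries, an interaction of -3.44 ± 0.38 (adjusted p = 0.0001). The summed CD8 and NK cell markers were higher in KO than in WT non-TFH libraries too, and their part was not tested.

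Positive interactions were found for other genes. Vdr, the vitamin D receptor, was at 5.94, 7.49 and 4.80 FPKM in the WT and 123, 83.7 and 121 in KO TFH libraries, and at 0.0510 to 0.0785 in WT and 1.22 to 1.73 in KO non-TFH libraries. Il4, the type 2 cytokine that TFH cells also make, was at 35.9, 47.8 and 15 in WT and 443, 262 and 475 in KO TFH libraries, and at 0, 0.336 and 0.570 in WT and 1.71, 3.26 and 2.15 in KO non-TFH libraries. KO libraries were higher in both cell types without overlap. The interactions were 2.75 ± 0.27 (adjusted p = 4.7e-05) and 2.26 ± 0.54 (adjusted p = 0.014). Neither passed with a pseudocount of 0.1, where adjusted p-values were 0.11 and 0.68, and their WT non-TFH levels were below the pseudocount of 1 used otherwise. Rasl11a (0.97), Sostdc1 (0.18), an antagonist of Wnt and BMP signals, and Il1r1 (0.083) were lost in the same way. For Sostdc1 and Il1r1 only the TFH change was called. H2-Ob, a class II-like chain, fell in both cell types and fell more in non-TFH cells. It went from 35.1, 32.1 and 34.8 to 0.291, 0.612 and 0.507 in non-TFH libraries. In TFH libraries it went from 10.1, 16.5 and 15.4 to 4.12, 4.40 and 2.87. The interaction of 2.95 ± 0.28 (adjusted p = 3.7e-05) was positive because the fall was the smaller in TFH cells.

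Of the 29 tested genes of the TFH program, 18 had an interaction call (62.1%, against 17.4% of all tested features), 9 in each direction. The median interaction was 0.09. Among the 9 with the higher change in TFH cells, Il4 and Sostdc1 did not pass with a pseudocount of 0.1. S1pr2, which holds cells in the follicle, rose by 1.76 in TFH cells against 0.07 in non-TFH cells, and Pou2af1, a coactivator, by 2.15 against 0.52. Sh2d1a, the adaptor SAP (1.48 against 0.24), Ascl2, an inducer of Cxcr5 (1.25 against 0.00), Btla (1.06 against -0.30) and Cd200 (1.18 against 0.41) had interactions of 0.77 to 1.36. Pdcd1 went from 364, 379 and 316 to 604, 601 and 704 FPKM in TFH libraries and stayed at 1.39 to 1.64 in non-TFH libraries, an interaction of 0.91 ± 0.14 (adjusted p = 0.0012). The genes on the other side changed more in non-TFH cells or fell in TFH cells. Rgs16 rose by 1.62, Batf by 1.19, Id3 by 1.07, Slamf6 by 1.1, Tox by 0.94 and Maf by 0.88 in non-TFH cells, against -0.35 to 0.46 in TFH cells. Angptl2 fell from 59.9, 56.2 and 63.1 to 4.93, 7.16 and 8.06 FPKM in TFH libraries and was at 0.139 to 1.13 in non-TFH libraries, an interaction of -3.38 ± 0.30 (adjusted p = 2.8e-05). Bcl6, the factor that directs the program, rose in both cell types, by 0.69 ± 0.12 in TFH and 0.61 ± 0.12 in non-TFH cells, and its interaction of 0.09 ± 0.18 did not pass (adjusted p = 0.8). Cxcr5 did not pass (adjusted p = 0.62), with non-TFH values between 0 and 12.2 FPKM. Cells had been sorted on PD-1, which Pdcd1 encodes, and on CXCR5. The sort itself thus limited the non-TFH change of Pdcd1 and Cxcr5, and their interactions are no independent result.

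**Figure D4:**
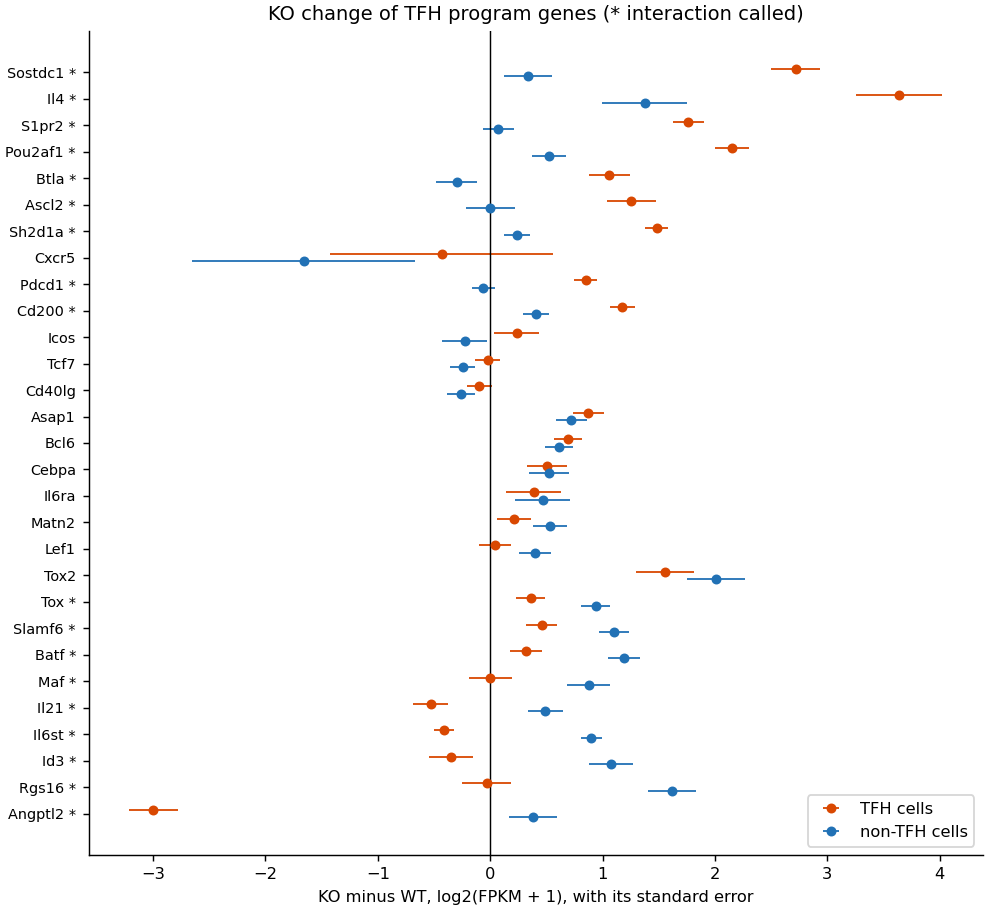
KO minus WT change on the log2(FPKM + 1) scale with its standard error for the 29 tested genes of the TFH program in TFH cells (orange) and non-TFH cells (blue), ordered by the interaction; asterisks mark the 18 interaction calls. On this scale Sostdc1, Il4 and S1pr2 rise more in TFH cells, Bcl6 (0.69 and 0.61) changes by similar point values, and Angptl2 falls in TFH cells alone. The interactions of Sostdc1 and Il4 do not pass with a pseudocount of 0.1.

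Across the other gene lists the share with an interaction call ranged widely around the 17.4% of all tested features. Regulatory T cell genes had 15 calls among 19 tested (78.9%), all with the lower change in TFH cells. In TFH cells 8 fell and 4 rose, whereas in non-TFH cells 11 rose and none fell, with medians of -0.03 and 1.11. Entpd1, an ectonucleotidase, changed by -2.30 in TFH and 0.62 in non-TFH cells, and Nt5e, which acts after it, by 0.01 and 2.98. Type 1 genes had 14 calls among 22 (63.6%), 13 of them lower in TFH, with 13 members falling in TFH and 9 rising in non-TFH cells. T zone and naive genes had 10 calls among 20 (50%), all lower in TFH. Ccr7, the receptor for the T zone, changed by -1.86 in TFH and 0.19 in non-TFH cells (interaction adjusted p = 2.9e-06). Il7r, the IL-7 receptor, changed by -1.59 and -1.58, and its interaction did not pass (adjusted p = 0.99).

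Type 2 and type 17 lists were small, with 9 of 11 (81.8%) and 8 of 10 (80.0%) called. The change was lower in TFH cells for 7 in each. Gata3, summed with an overlapping transcript, was at 29.9, 29.5 and 30.4 FPKM in the WT and 98.2, 57.6 and 78.2 in KO TFH libraries, and at 13.9, 14.3 and 14.7 in WT and 19.2, 19.4 and 19.6 in KO non-TFH libraries. KO libraries were higher in both cell types, and the change was called in TFH cells alone, an interaction of 0.90 ± 0.22 (adjusted p = 0.013). Il1r1 was the type 17 member with the higher change in TFH cells, a call lost with a pseudocount of 0.1. Costimulatory and inhibitory receptors had 15 of 23 called (65.2%), chemokine and homing receptors 13 of 25 (52.0%) and cytokines and TNF ligands 11 of 23 (47.8%), mostly lower in TFH cells.

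Glycolysis genes had 14 calls among 24 tested (58.3%), 11 with the higher and 3 with the lower change in TFH cells. In TFH cells 13 rose and 3 fell, against 4 that rose and 5 that fell in non-TFH cells, with medians of 0.56 and -0.01. Pkm, the pyruvate kinase, changed by 0.66 in TFH and -0.27 in non-TFH cells (interaction adjusted p = 0.0005), and Pgk1 by 0.88 and -0.23 (adjusted p = 0.00061). Tpi1 rose in both, by 1.94 and 0.80, and Pdk1, which holds pyruvate back from the mitochondrion, fell in both, by 0.65 and by 2.01. Slc16a3, a lactate exporter, went from 2.79 to 5.68 up to 11.9 to 21.1 FPKM in TFH libraries and was at 0 to 1.55 in non-TFH libraries.

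T cell receptor signalling genes had 12 calls among 38 (31.6%, against 17.4% of all tested features), 6 in each direction. Besides Fyn, the kinase Zap70 changed by 0.42 in TFH and -0.25 in non-TFH cells (interaction adjusted p = 0.0069), and Themis was at 47.2 to 59.6 in WT and 57.1 to 84.4 in KO TFH libraries. Themis went from 46.1 to 59.8 FPKM down to 34.6 to 36.5 in non-TFH libraries, an interaction of 0.97 ± 0.21 (adjusted p = 0.0076). Cd5, a brake on receptor signals, fell in both cell types, by 0.59 in TFH and by 1.2 in non-TFH cells. Thy1 fell by 3.68 and by 3.32 with an interaction that did not pass (adjusted p = 0.32). In the ETS family 3 of 15 were called (20%), close to the 17.4% of all tested features, so the count is no result about the family. Elf1 was at 70 to 90.6 in WT and 62.2 to 66.8 in KO TFH libraries and rose from 87.7 to 117 FPKM to 172 to 184 in non-TFH libraries (interaction -1.14 ± 0.16, adjusted p = 0.00067). Etv5 rose in both, by 1.22 ± 0.15 and by 2.10 ± 0.14, and its interaction of -0.89 did not pass with quantile normalization. Spi1 was the third.

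Shares below that of all features were seen for cell cycle and proteasome genes and for some smaller lists. No call was made among 11 tested class I presentation genes, 5 GIMAP genes and 3 erythroid and platelet markers. Cell cycle genes had 3 calls among 42 (7.14%), while 21 rose in TFH and 17 rose in non-TFH cells, with medians of 0.67 and 0.69. The 3 were Ccne1, whose call was lost in 12 of 23 alternatives (highest adjusted p = 0.082), Tk1, which was listed at 0 in all WT non-TFH libraries, and Kif23, a mitotic kinesin. Kif23 was at 9.27 to 12.5 in WT and 4.02 to 5.67 FPKM in KO non-TFH libraries and at 7.99 to 16.6 and 15.8 to 19.5 in TFH libraries (interaction 1.59 ± 0.32, adjusted p = 0.0045). Proteasome genes had 3 among 31 (9.68%), with 22 rising in TFH and 4 in non-TFH cells. The calls of Psmd13 and Psmc1 were made in only 9 of 24 and 8 of 23 alternatives, and that of Psmc6 in all 24. Over all tested features 15.8% rose in TFH and 11.8% in non-TFH cells. A call that was not made does not show that changes were equal.

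**Figure D5:**
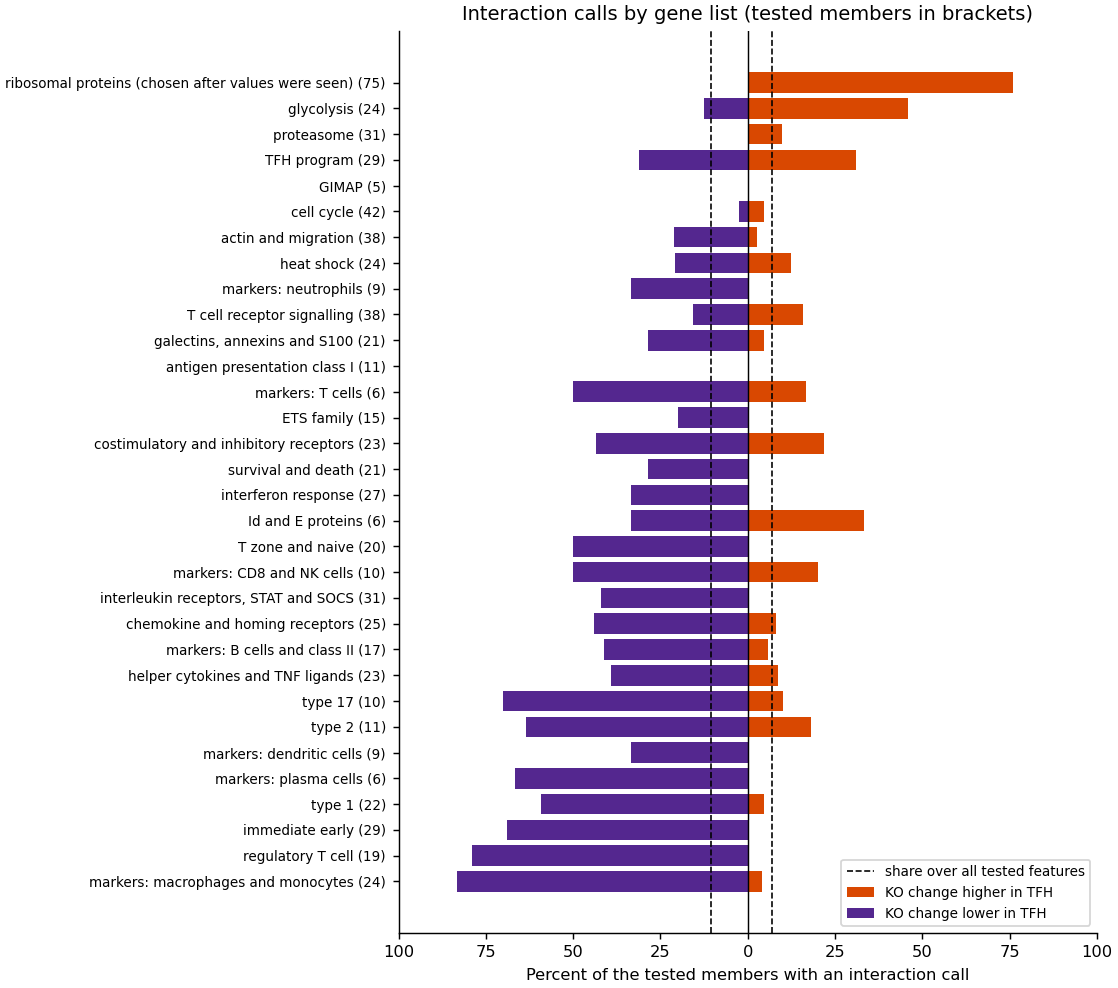
Percent of the tested members of each gene list with an interaction call, to the right where the KO change was higher in TFH cells and to the left where it was lower; dashed lines give the shares over all tested features (6.88% and 10.5%), and tested members are in brackets. Macrophage markers, regulatory T cell genes and immediate early genes lie far to the left, and ribosomal protein genes (57 of 75, a list chosen after values were seen) and glycolysis genes (11 of 24) to the right.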

How the data were processed

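RNA of the 12 libraries was read as strand-specific poly(A) libraries, per the labels' protocols, and the build mm10 and the tools TopHat2, Bowtie2, Cufflinks, Cuffdiff, cutadapt and FastQC are listed in the submitters' processing notes, with versions not given in the sources used here. The authors deposited 1 table per library, whose values are FPKM per gene with a confidence interval, per the file headers. No read counts were used here; depth was estimated from the width of the deposited FPKM confidence intervals at loci without a gene symbol, read as counting error, at 11700000 to 15400000 fragments, and no counting interval is given. Rows without a gene symbol, the 9 rows with a failed estimate and 24 date-like symbols were left out.

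A symbol listed alone in 2 or more libraries of each group was used as such, and overlapping genes reported together in some tables were summed (650 of the 11097 tested features). FPKM were scaled by median ratios over 7164 features (factors 0.8567 to 1.1406), a pseudocount of 1 was added, and features that reached 1 FPKM in 3 libraries or more were fitted in limma 3.58.1 (R 4.3.3; mean-variance trend, robust moderation) with 1 mean for each of the 4 groups, in which all 12 libraries share 1 estimate of the spread. P-values were adjusted by Benjamini-Hochberg over all tested features for each contrast. A fold on the log2(FPKM + 1) scale understates the change of low genes, and a value listed at 0 can be a failed estimate. The fit was tested on simulated data with 1 spread per gene for all groups. Such data cannot show how the wider spread between TFH libraries affects the calls. Tables were handled in Python 3.11.15 with pandas 2.3.3 and figures drawn with matplotlib 3.10.9.

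The rule for named genes required a feature of their own, a value above 0 in every library of at least 3 groups and a group mean of 5 FPKM or more. Among these it took the 12 opposite calls per direction with the largest smaller-of-both changes. By largest difference, it took the 6 interaction calls per sign where the change of 1 cell type alone was called. It also took the 4 per sign where both changes were called alike in sign. It added, from each gene list, opposite calls and the 3 calls with the largest differences, and 9 genes in any case. The members and lists were chosen with earlier results of these data known, and genes outside the rule (Rps25, Rpl35, the promoter windows, and further list members such as S1pr2 or Pkm) after their values were seen. There were 24 alternative analyses: other scalings, pseudocount, filters, symbol handling, moderation and weights, replicate blocks, and leaving out each library in turn. With the replicate block within genotype only the interaction was refitted. An opposite call could be lost there through the interaction alone, as the KO changes were those of the main fit.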

Additional observations from a re-analysis of the deposited data

Results flagged for a closer look

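The interaction itself is a difference between the cell types under 1 contrast, and 1932 features passed its test. The 24 leading genes with opposite changes were picked up because the difference between the cell types passed for each. The TFH minus non-TFH difference in the KO change was 2.03 log2 for Hpgds, 1.85 for Gng2, 2.97 for Fyn, 2.39 for Kifc1, 1.83 for Bzw2, 1.77 for Arhgap10, 1.75 for Mfsd6, 1.6 for Aldoa, 1.51 for Nck2, 1.87 for Cpm, 3.59 for Fam92a and 1.22 for Rpl14. It was -4.85 for Klf4, -4.30 for Ccl4, -4.46 for Cd163, -3.54 for Frmd4b, -3.47 for Ccl3, -3.40 for Pmaip1, -3.03 for D16Ertd472e, -3.45 for Rora, -5.47 for Cd81, -4.44 for Cd86, -2.95 for Ccl6 and -3.29 for Ifitm3. The values for Fam92a and Cd81 rest on a group listed at 0 throughout, depend on the pseudocount and are no bound. Groups of 3 libraries are too small for a test of single outlying libraries.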

How the results depend on the processing

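Among the 137 named genes with an interaction call, no direction was reversed in any of the 24 alternatives that tested them, whereas the interaction of Bcl6, which was not called, ranged from -0.02 to 0.16. Of the 137, 115 kept their call in every alternative that tested them and 22 lost it in at least 1, with 0 to 8 lost per alternative. Features with opposite calls, 68 up in TFH and down in non-TFH cells and 150 the reverse, numbered 44 and 122 under quantile normalization. Without 1 library at a time they ranged from 45 to 79 and from 99 to 167, both lowest without WT non-TFH replicate 1, the library with fewer values. Interaction calls ranged from 1497 to 2105 in the same analyses, lowest without that library and highest without WT TFH replicate 1. The cause of these shifts was not tested.

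The labels give replicate numbers, but deviations of same-numbered libraries correlated at only -0.032 to 0.059, so the numbers were not taken to pair samples. With the replicate block within genotype 1421 interaction calls were made, 1373 of them shared with the 1932, and Etv5, Il4 and Klf2 were among 8 named genes whose call was not made. With the replicate block over all groups there were 1727, of which 1682 were shared. In KO against WT of 1 cell type and in TFH against non-TFH of 1 genotype, some libraries correlated best with another number than their own.

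Of the 1932 calls, 156 rest on a group listed at 0 in every library. Leaving out features listed at 0 gave 1619 calls. A filter at 5 FPKM gave 1516. An alternative chosen after seeing the data, which kept features whose annotated boundaries were stable between tables, gave 1621. The spread between libraries was wider in TFH cells (median SD of 0.258 log2 in WT and 0.215 in KO) than in non-TFH cells (0.105 and 0.115). Differences for low genes are limited by it. As the fit gave all libraries 1 shared spread, p-values can be too small for TFH changes and too large for non-TFH changes. This bears on the calls per cell type and on the opposite calls, and its size was not tested.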
